A study of Homo sapiens with 20 samples.

Results

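CD45, the receptor-type tyrosine phosphatase encoded by PTPRC, and HNRNPLL, an RNA-binding protein that controls skipping of the CD45 variable exons, were examined in WT and CD47- Jurkat cells. Both genes and their isoforms were picked by gene name, which gave 2 of 60719 genes and, in the isoform table, 17 PTPRC and 12 HNRNPLL isoforms of 232184. Both genes and 14 of the PTPRC and 7 of the HNRNPLL isoforms passed the low-count filter of the tests. PTPRC (ENSG00000081237.20) lies on chromosome 1 of GRCh38 from 198638457 to 198757476 on the plus strand, and HNRNPLL (ENSG00000143889.16) on chromosome 2 from 38561969 to 38603586 on the minus strand.

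RNA came from WT Jurkat cells, which grow from a human T cell leukemia, and their CD47-deficient mutant JinB8, named CD47- here, with 10 libraries per line. Each line had 1 untreated library (UT) at 1 h, and at each of 1, 3 and 6 h 1 library from cells on plates coated with anti-CD3 and anti-CD28 (CD3_CD28), 1 from such plates with 1 μg/mL of the CD47 ligand thrombospondin-1 (CD3_CD28_TSP1) and 1 with TSP1 alone (TSP1). All cells were held in serum-free HITES medium, with anti-CD28 coated at 4 μg/mL where it was used. Every condition was sequenced once, nothing in the sources says that libraries came from separate cultures beyond the conditions, and no untreated library covers 3 or 6 h, so the p-values measure the spread between these libraries. CD47- is a single mutant line, so loss of CD47 and other differences between both lines cannot be told apart.

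CD45 removes the inhibitory phosphate from the kinases LCK and FYN and so sets the threshold of T cell receptor signaling. Its extracellular part is lengthened by exons A, B and C (exons 4, 5 and 6), which are included in different combinations. Naive T cells carry CD45RA-bearing forms, and in activated and memory T cells the exons are skipped to give the short form CD45RO. HNRNPLL and its paralog HNRNPL bind CA-rich RNA in these exons and favor skipping, and HNRNPLL is known to increase when T cells are activated.

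Exons A and C are shown as examples of the variable exons, and the junction because it is what skipping all 3 variable exons leaves. Exon A spans chr1:198696712-198696909 of GRCh38 (198 bp, 66 codons) and exon C chr1:198702387-198702530 (144 bp, 48 codons), both in the coding sequence and printed on the plus, mRNA strand. Capitals mark the letters ACAC or CACA, which describe these exons and do not show where a protein binds, and the last line joins the 15 bases that end exon 3 at 198692373 to the 15 bases, in capitals, that begin the exon at 198703298 in the CD45RO isoform PTPRC-201.
exon A: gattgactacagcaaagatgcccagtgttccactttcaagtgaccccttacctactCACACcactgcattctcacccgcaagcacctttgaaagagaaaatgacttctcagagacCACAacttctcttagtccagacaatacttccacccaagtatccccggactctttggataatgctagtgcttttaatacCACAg
exon C: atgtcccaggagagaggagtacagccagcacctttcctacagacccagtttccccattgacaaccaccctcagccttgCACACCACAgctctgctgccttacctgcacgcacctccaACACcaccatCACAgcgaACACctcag
CD45RO junction: caccttcccccactgATGCCTACCTTAATG

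Library totals were between 16107921 and 31737616 counts, of which PTPRC took 7653 to 31467 and HNRNPLL 456 to 1463. CD47 itself was at 253 to 372 CPM (counts scaled to library size with the TMM factors of edgeR) in WT libraries and at 124 to 165 CPM in CD47- libraries, so its mRNA was lower but present in every library labelled CD47-. All 9 T cell markers examined were above 1 CPM on average in both lines, with summed levels of 1168 to 1542 CPM in WT and 1431 to 2057 CPM in CD47- cells. Summed B cell markers were at 35.6 to 56.0 CPM in WT and 5.86 to 13.7 CPM in CD47- libraries, with 3 of 5 under 1 CPM on average in each line. The myeloid and epithelial sums were at most 3.74 CPM, and the mesenchymal sum was 1.89 to 6.52 CPM in WT and 7.57 to 12.3 CPM in CD47- cells. The part of these differences in the results below was not tested. In bulk RNA, fewer cells of a kind and less RNA per cell cannot be told apart.

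The CD47- CD3_CD28_TSP1 library at 3 h stood apart in several measures, as was seen after its values were examined. It had the smallest total, the highest TMM factor (1.20) and the lowest correlation of deviations with its matched WT library (0.120). It held HNRNPD at 187 CPM and HNRNPA3 at 332 CPM, where the other CD47- libraries held 88.3 to 111 and 157 to 224 CPM, and HNRNPA1 at 611 CPM, where the others held 980 to 1489 CPM. It also had the lowest PTPRC level and the highest CD45RO share of the CD47- libraries. The part of this library's quality in those values was not tested. Without it the edgeR line difference was -0.46 for PTPRC (adjusted p = 0.00250) and 0.41 for HNRNPLL (0.159), and the PTPRC interaction was -0.72 at 3 h (0.000995) and -0.97 at 6 h (5.15e-06). The HNRNPLL interaction at 6 h was then -0.64 (edgeR adjusted p = 0.000250), HNRNPA1 between the lines -0.28 (0.0284), and the line difference in exon A -7.14 points and in CD45RO 7.27 points (permutation p = 0.000498 and 0.000260). Genes called for the 6 h interaction numbered 4273 without it and 2714 with it, and for the 3 h interaction 1066 and 698.

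PTPRC mRNA was at like levels in both lines at 1 h and then moved apart, rising in WT and falling in CD47- cells. At 1 h the WT libraries UT, CD3_CD28, CD3_CD28_TSP1 and TSP1 held 655, 633, 585 and 622 CPM, and the CD47- libraries in the same order 612, 646, 590 and 652 CPM. At 3 h the CD3_CD28, CD3_CD28_TSP1 and TSP1 libraries held 825, 797 and 682 CPM in WT and 480, 397 and 493.5 CPM in CD47- cells. At 6 h they held 1005, 1027 and 994 CPM in WT and 534, 505 and 548 CPM in CD47- cells. The lines overlapped at 1 h and did not overlap at 3 h or 6 h, and PTPRC was lower in CD47- cells in 7 of 10 library pairs of like treatment and time. The ratio of the CD47- to the WT mean was 1.00, 0.595 and 0.524 at the 3 time points in order.

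**Figure D1:**
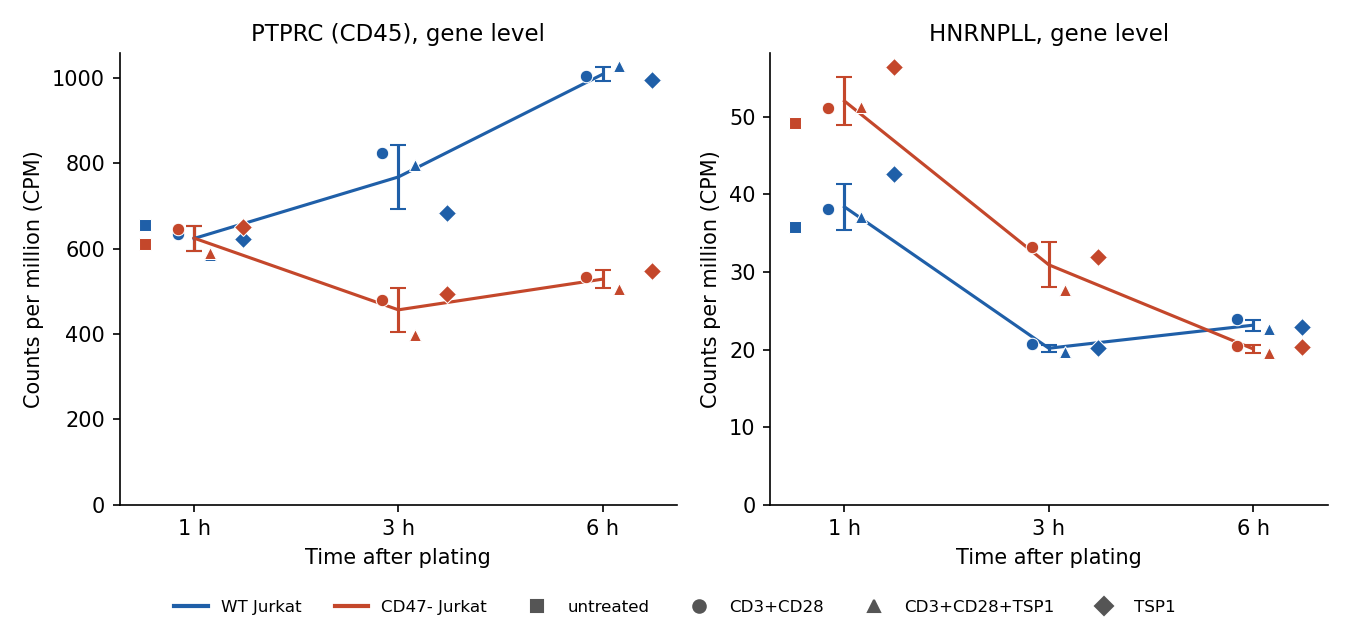
PTPRC and HNRNPLL mRNA (CPM, vertical axes from 0) at 1, 3 and 6 h (horizontal axes) in WT (blue) and CD47- (red) libraries; symbols are single libraries by treatment, and lines and bars are the mean and SD of the libraries of a time point. For PTPRC the lines part after 1 h, to 994 to 1027 CPM in WT and 505 to 548 CPM in CD47- libraries at 6 h, whereas HNRNPLL falls in both and the order of the lines changes between 3 h and 6 h.

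In the edgeR quasi-likelihood test over all 20 libraries (Benjamini-Hochberg adjustment over 16327 genes), PTPRC was lower in CD47- cells, by a log2 fold change of -0.52 with an SE of 0.118 (adjusted p = 0.00108), in a comparison that called 40.4% of genes (19.8% higher and 20.6% lower). The difference varied with time. With the lines compared at each time point in a model chosen after seeing the data, the log2 fold change of PTPRC was 0.0021 at 1 h (edgeR adjusted p = 0.985), -0.75 at 3 h (5.54e-07) and -0.93 at 6 h (2.28e-08), where 48.4%, 46.3% and 46.6% of genes were called. In the 4 matched pairs without activation alone, the edgeR difference of PTPRC was -0.34 with an adjusted p of 0.209.

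Within WT cells PTPRC rose by a log2 fold change of 0.32 at 3 h against 1 h (edgeR adjusted p = 0.00488, 34.3% of genes called, 16.9% higher and 17.4% lower) and of 0.72 at 6 h (SE 0.076, adjusted p = 3.39e-06, 50.5% of genes called, 25.7% higher and 24.8% lower). Within CD47- cells PTPRC fell by 0.47 on the log2 scale at 3 h (edgeR adjusted p = 0.000378, 38% of genes called, 18% higher and 20.1% lower) and by 0.25 at 6 h (adjusted p = 0.0129, 53% of genes called, 26% higher and 27% lower). The 6 h call in CD47- cells rested on single libraries: without its CD3_CD28 library at 6 h the PTPRC change was -0.23 (edgeR adjusted p = 0.0678), and without its TSP1 library at 6 h -0.22 (0.0749). The difference between the lines in the time effect passed as an interaction, at -0.79 for 3 h (edgeR adjusted p = 0.00158, 4.28% of genes called, 2.02% higher and 2.25% lower) and -0.97 for 6 h (6.67e-05, 16.6% of genes called, 6.46% higher and 10.2% lower). The UT libraries at 1 h do not enter these time effects, which come from the 3 treatments sequenced at every time point.

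The balance of CD45 isoforms differed between the lines, and the shares of exon A and CD45RO did not overlap between them at any time point. Shares were not tested at single time points. A smaller share of PTPRC isoform counts was in forms with exon A in CD47- cells, and a larger share was in the CD45RO form. Shares are percentages of the expected counts of PTPRC isoforms annotated from the exon before exon A to the exon after exon C, 7365 to 30818 counts per library, which gives Wilson 95% intervals 0.861 to 1.57 percentage points wide for exon A. These intervals cover counting error only, and not the uncertainty of dividing reads among isoforms.

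Exon A was carried by 28.4%, 22.8%, 24.5% and 20.7% of these PTPRC counts in the WT libraries UT, CD3_CD28, CD3_CD28_TSP1 and TSP1 at 1 h. The CD47- libraries at 1 h carried it in 19.0%, 15.5%, 20% and 15.2%. At 3 h the CD3_CD28, CD3_CD28_TSP1 and TSP1 libraries were at 26.8%, 25.8% and 21.8% in WT and 15%, 12.5% and 14.8% in CD47- cells. Every CD47- library at 1 h or 3 h was thus below every WT library of its time point. At 6 h the same treatments were at 18.3%, 18.2% and 17.0% in WT and 10.5%, 15.5% and 12.2% in CD47- cells, again without overlap.

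Over all time points exon A inclusion was 22.4% ± 3.93 (SD, n = 10) in WT and 15% ± 2.91 (n = 10) in CD47- libraries, a difference of -7.42 percentage points (two-sided permutation test with 100000 resamples, p = 0.00024, adjusted p = 0.00302 over 63 tests of shares). CD45RO made up 69.2% ± 3.68 in WT, from 64.6% to 74.9%, and 77.0% ± 3.21 in CD47- libraries, from 72.0% to 81.7%, a difference of 7.80 points (permutation p = 0.00016, adjusted p = 0.00302). In 10 of 10 matched pairs the CD47- library had less exon A and more CD45RO. The differences in exon A of -6.70, -10.7 and -5.10 points at 1, 3 and 6 h were of 1 sign, and exchanging the lines within time points gave an exact p of 7.14e-05, the smallest that its 28000 arrangements allow. This last test was chosen after seeing the data.

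Exon B and exon C moved with exon A in these counts. Most counts that carry any of them belong to 1 isoform, PTPRC-209, which carries all 3 and has the form called CD45RABC. Its part in the exon B share depends on the isoform models, as given below. Exon B was carried by 30.8% of the same PTPRC counts in WT and 23.0% in CD47- libraries, and exon C by 25.8% and 18.4%. CD45RABC was 22.3% in WT and 14.9% in CD47- cells (permutation p = 0.00022, adjusted p = 0.00302). The forms with exon B alone (CD45RB) made up 4.77% ± 0.36 and 4.41% ± 0.55, a difference of -0.35 points (permutation p = 0.104). They include PTPRC-210, a retained-intron model with no annotated coding sequence. With protein-coding isoforms only, CD45RB made up 2.42% to 3.48% in WT and 2.13% to 3.60% in CD47- libraries. The forms with exons B and C (CD45RBC) made up 3.56% ± 0.72 and 3.52% ± 0.81 (difference -0.034 points, permutation p = 0.925), so neither intermediate form passed the test.

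**Figure D2:**
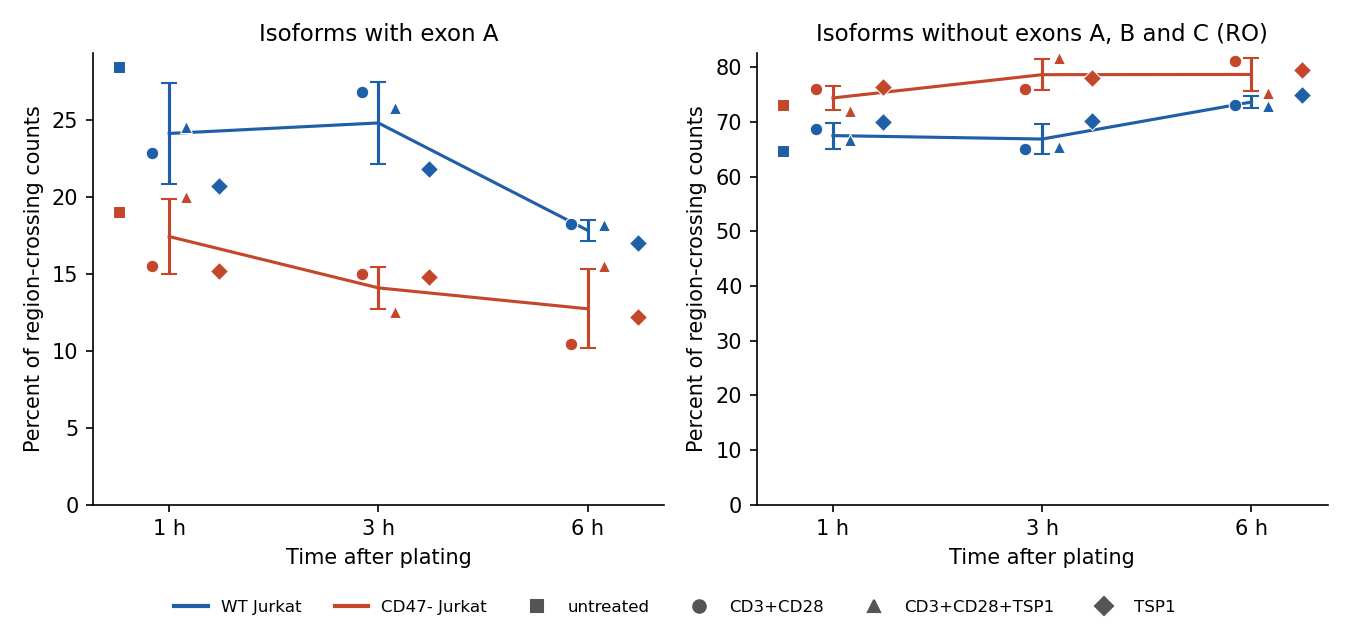
Percent of region-crossing PTPRC counts (vertical axes from 0) in isoforms with exon A (left) and in isoforms without exons A, B and C, CD45RO (right), at 1, 3 and 6 h in WT (blue) and CD47- (red) libraries; symbols are single libraries by treatment, lines and bars the mean and SD of a time point. No CD47- library overlaps a WT library of its time point in these counts, which are not divided by transcript length. At 6 h exon A is at 17.0% to 18.3% in WT and 10.5% to 15.5% in CD47- libraries.

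Exon A inclusion was lower at 6 h than at 1 h over both lines. The WT means were 24.1%, 24.8% and 17.8% at 1, 3 and 6 h, and the CD47- means 17.4%, 14.1% and 12.7%. With time labels exchanged within each line, the change from 1 h to 6 h was -5.49 points (exact permutation p = 0.00408, adjusted p = 0.0286). CD45RO changed by 5.21 points (exact permutation p = 0.00408, adjusted p = 0.0286), and exon C by -5.57 points (exact permutation p = 0.000816, adjusted p = 0.00857).

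In a single line, 4 against 3 libraries cannot give an exact p below 0.0286. Exon A differed by -6.29 points in WT (exact permutation p = 0.0571) and by -4.69 points in CD47- cells (0.114), and whether the lines differ in this was not tested. At 3 h the exon A difference from 1 h was 0.68 points in WT (exact permutation p = 0.8) and -3.33 points in CD47- cells (0.143). Dividing counts by transcript length left the 6 h change of CD45RO at 2.39 points (exact permutation p = 0.0824).

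The isoform models set a limit on the shares. Among the isoforms that cross the variable exons, only PTPRC-201 (ENST00000348564.11, CD45RO, 30 exons, 4753 bp, 1145 codons) and PTPRC-209 (ENST00000442510.8, CD45RABC, 33 exons, 5357 bp, 1306 codons) run to the 3′ end of the gene, and the models with exon B alone or exons B and C stop early. When counts were divided by transcript length, CD45RB was between 17.1% and 22.8% in WT libraries and between 16.9% and 23.9% in CD47- libraries, whereas CD45RO remained at 52.5% to 61.5% and 58.5% to 67.4%. The line difference kept its direction on that scale, at -5.40 points for exon A and 6.42 points for CD45RO. At 6 h CD45RO was then at 58.1% to 61.5% in WT and 59.1% to 66.3% in CD47- libraries, so the lines overlapped.

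The isoform levels showed which CD45 forms made up the gene-level course. PTPRC-201 took 67.2% of PTPRC counts in WT and 75.2% in CD47- cells, and PTPRC-209 took 21.7% and 14.6%; these are the PTPRC isoforms with at least 5% of the gene's counts. PTPRC-201 was at 407, 424, 378 and 423 CPM in the WT libraries UT, CD3_CD28, CD3_CD28_TSP1 and TSP1 at 1 h and at 718, 732 and 725 CPM in CD3_CD28, CD3_CD28_TSP1 and TSP1 at 6 h. In CD47- cells it was at 437, 482, 415 and 486 CPM at 1 h and at 426, 373 and 425 CPM at 6 h. The WT libraries at 6 h were thus the highest, and at 1 h both lines overlapped.

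PTPRC-209 had the opposite emphasis, with its difference already present at 1 h. Its WT libraries held 179, 141, 139 and 124 CPM at 1 h and its CD47- libraries 114, 98.0, 115 and 96.2 CPM, without overlap. At 6 h its libraries held 178, 181 and 165 CPM in WT and 54.8, 76.6 and 65.0 CPM in CD47- cells. The means at 3 h were 186 and 63.3 CPM, between 144 and 214 CPM in WT and between 47.6 and 71.9 CPM in CD47- libraries.

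**Figure D3:**
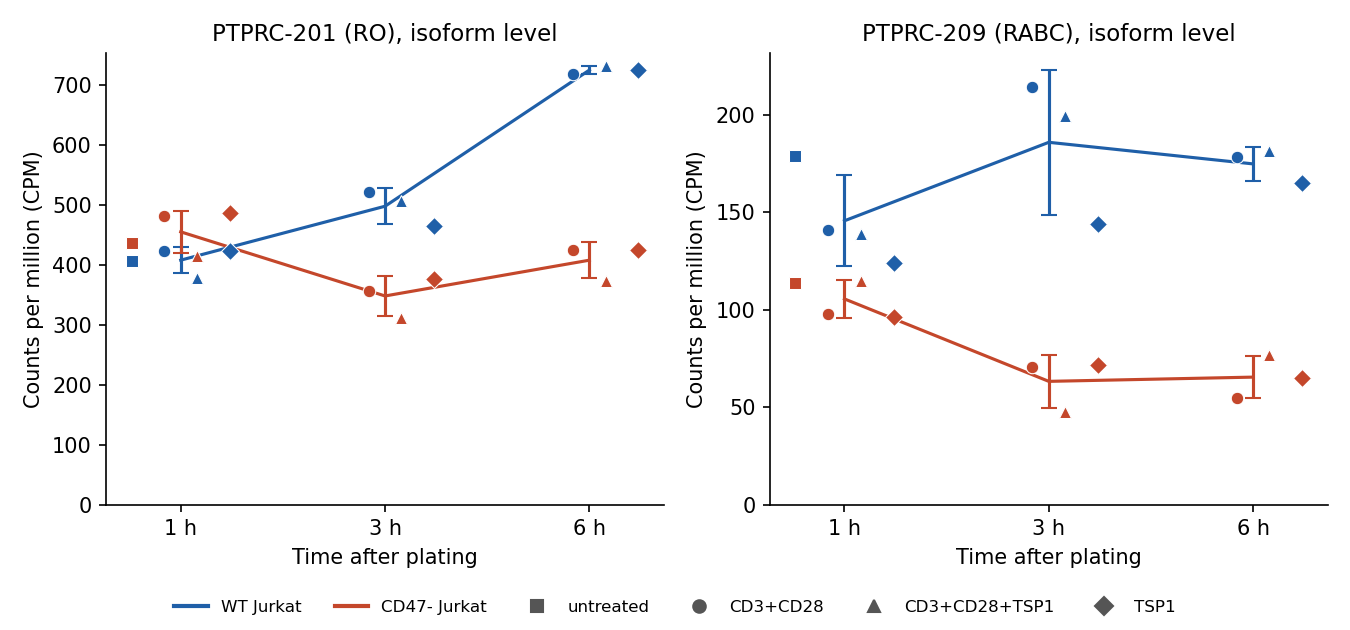
Levels of PTPRC-201 (CD45RO, left) and PTPRC-209 (CD45RABC, right) in CPM (vertical axes from 0) at 1, 3 and 6 h in WT (blue) and CD47- (red) libraries; symbols are single libraries by treatment, lines and bars the mean and SD of a time point. PTPRC-201 reaches 718 to 732 CPM in WT at 6 h against 373 to 426 CPM in CD47- cells, and PTPRC-209 is lower in every CD47- library than in any WT library.

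Of the 14 PTPRC isoforms tested between the lines, 6 were lower in CD47- cells and none was higher (edgeR, adjusted over 55450 isoforms, of which 15.1% were called). PTPRC-209 was lower, at a log2 fold change of -1.03 with an SE of 0.150 (adjusted p = 4.09e-05), and PTPRC-201 was at -0.36 (adjusted p = 0.0818). The others called were the minor isoforms PTPRC-206, PTPRC-207, PTPRC-210, PTPRC-211 and PTPRC-217, each at most 1.72% of PTPRC counts in either line. Without the WT UT library the edgeR value of PTPRC-201 was -0.40 with an adjusted p of 0.0471, and without WT CD3_CD28_TSP1 at 1 h -0.41 with 0.0442.

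Among PTPRC isoforms at 3 h, PTPRC-201 (0.35, edgeR adjusted p = 0.0102), PTPRC-210 (0.81, 0.0173) and PTPRC-215 (0.74, 0.0490) rose in WT cells, where 5.53% of isoforms were called. In CD47- cells PTPRC-201 fell by 0.36 on the log2 scale (edgeR adjusted p = 0.00960), as did PTPRC-213, a minor form with exons A and B, by 3.32 (0.0357), where 6.94% were called. At 6 h against 1 h, PTPRC-201 rose in WT cells with a log2 fold change of 0.89 (edgeR adjusted p = 1.91e-05, 14.9% of isoforms called), as did the minor isoforms PTPRC-210 (1.03, 0.00202) and PTPRC-215 (1.13, 0.00291), which both carry exon B alone. PTPRC-209 was at 0.44 in WT (edgeR adjusted p = 0.141). In CD47- cells PTPRC-201 was at -0.10 (edgeR adjusted p = 0.342) and PTPRC-209 at -0.58 (0.0534), where 17.3% of isoforms were called and PTPRC-204, a minor form without the 3 exons, was called lower (-1.30, 0.0399). The interaction of line and 6 h passed for PTPRC-201, at -0.99 (edgeR adjusted p = 0.00128, 0.945% of isoforms called). Without the CD47- CD3_CD28_TSP1 library at 3 h, which stood apart, the edgeR adjusted p of PTPRC-209 at 6 h was 0.00922 in WT (0.44) and 0.0020 in CD47- cells (-0.58). In CD47- cells PTPRC-209 also passed without CD3_CD28 at 3 h (-0.58, edgeR adjusted p = 0.0447) and without CD3_CD28_TSP1 at 6 h (-0.76, 0.0411). With each library left out in turn, PTPRC-209 at 6 h ran from -0.76 to -0.43 in CD47- (edgeR adjusted p of 0.00204 to 0.224) and from 0.36 to 0.49 in WT cells (0.00922 to 0.371). PTPRC-209 at 6 h also passed in CD47- cells with a filter of 1 CPM in every library (-0.58, edgeR adjusted p = 0.0119), and with limma voom in CD47- (-0.58, adjusted p = 0.0132) and WT cells (0.43, 0.0196). In limma voom PTPRC-201 was at -0.23 at 6 h in CD47- cells (adjusted p = 0.0269).

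Relative use of each isoform against the other isoforms of its gene was tested across 49951 isoforms with diffSpliceDGE of edgeR. PTPRC-209 was at a log2 difference in use of -0.36 between the lines (edgeR adjusted p = 0.307), where 0.647% of isoforms were called. No PTPRC or HNRNPLL isoform passed this test between the lines, at 6 h in WT (1.13% of isoforms called) or CD47- cells (1.71%), or in the 6 h interaction (0.392%). In limma voom with diffSplice, which called 4189 (WT) and 5074 (CD47-) isoforms at 6 h where edgeR called 564 and 853 (1418 and 1887 with the 1 CPM filter), PTPRC-209 was used less at 6 h in WT (-0.43, adjusted p = 0.000796) and CD47- cells (-0.37, 0.0299). PTPRC-201 was used more there at 6 h in WT (0.42, limma adjusted p = 4.13e-05) and between the lines in CD47- cells (0.56, 0.000133). Between the lines PTPRC-209 passed with the 10 matched pairs as a block (-0.40, edgeR adjusted p = 0.0135), with a filter of 1 CPM in every library (-0.37, 0.0381) and with limma voom and diffSplice (-0.51, adjusted p = 0.00884). The block called 719 isoforms and limma 1607 in that comparison, against 323 in the first test.

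HNRNPLL mRNA fell between 1 h and 3 h in both lines and was higher in CD47- than in WT cells until 3 h. At 1 h the WT libraries UT, CD3_CD28, CD3_CD28_TSP1 and TSP1 held 35.8, 38.1, 37.0 and 42.6 CPM, and the CD47- libraries 49.3, 51.2, 51.3 and 56.4 CPM. At 3 h the CD3_CD28, CD3_CD28_TSP1 and TSP1 libraries held 20.7, 19.7 and 20.2 CPM in WT and 33.2, 27.7 and 31.9 CPM in CD47- cells. At 6 h they held 23.9, 22.6 and 22.9 CPM in WT and 20.5, 19.5 and 20.3 CPM in CD47- cells. The lines did not overlap at any time point, with the CD47- libraries higher at 1 h and 3 h and lower at 6 h, so that 7 of 10 matched pairs were higher in CD47- cells. The ratio of the CD47- to the WT mean was 1.36, 1.53 and 0.868 at 1, 3 and 6 h.

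Over all libraries the line difference of HNRNPLL did not pass, at a log2 fold change of 0.35 with an SE of 0.218 (edgeR adjusted p = 0.212). With the 10 matched pairs as a block it was 0.30 with an edgeR adjusted p of 0.0179, and with a time term 0.30 with 0.00408. At single time points the log2 fold change of HNRNPLL was 0.44 at 1 h (edgeR adjusted p = 1.97e-05), 0.62 at 3 h (3.25e-06) and -0.20 at 6 h (0.0443).

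Against 1 h, HNRNPLL fell by 0.96 on the log2 scale at 3 h (edgeR adjusted p = 1.06e-06) and by 0.76 at 6 h (SE 0.076, adjusted p = 1.84e-06) in WT cells. In CD47- cells HNRNPLL fell by 0.78 at 3 h (edgeR adjusted p = 6.64e-06) and by 1.40 at 6 h (SE 0.076, adjusted p = 8.41e-09). The interaction was 0.18 for 3 h (edgeR adjusted p = 0.340) and -0.64 for 6 h (0.00137), the latter a larger fall in CD47- cells. No library left out in turn ended any of these 5 calls of HNRNPLL.

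The paralog HNRNPL was at 198, 167 and 157 CPM in WT and 226, 166 and 157 CPM in CD47- cells at 1, 3 and 6 h. HNRNPL fell at 6 h in both lines, with log2 fold changes of -0.37 in WT (edgeR adjusted p = 0.000662) and -0.54 in CD47- cells (2.35e-05). Its line difference was 0.08 (edgeR adjusted p = 0.526).

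HNRNPLL-205 (ENST00000409636.5, 14 exons, 537 codons) was the main isoform, with 40.6% of HNRNPLL counts in WT and 37.2% in CD47- cells. It was at 14.3, 20.8, 15.2 and 17.9 CPM in the WT libraries at 1 h in the order used above and at 12.1, 6.70 and 7.10 CPM at 6 h. In CD47- cells it was at 20.1, 18.2, 21.7 and 25.5 CPM at 1 h and at 6.64, 6.71 and 5.48 CPM at 6 h. All 6 h libraries were below all 1 h libraries of their line, and HNRNPLL-205 fell by 1.10 at 3 h (edgeR adjusted p = 0.0124) and 1.03 at 6 h (0.00750) in WT, and by 0.85 (0.0339) and 1.71 (0.000386) in CD47- cells, on the log2 scale.

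HNRNPLL-206 (ENST00000410076.5, 7 exons, 275 codons) is a shorter coding model that ends inside the gene at 38581075. Its level was 5.59, 4.00 and 6.11 CPM in WT and 8.99, 5.46 and 5.73 CPM in CD47- cells at 1, 3 and 6 h. It was called lower at 3 h in CD47- cells (-0.67, edgeR adjusted p = 0.0337) and was at -0.45 in WT (0.152). Its 6 h change was 0.17 in WT (edgeR adjusted p = 0.562) and -0.57 in CD47- cells (0.0331), a call that 6 single libraries ended, the CD3_CD28, CD3_CD28_TSP1 and TSP1 libraries of CD47- cells at 1 h and at 6 h (adjusted p of 0.0724 to 0.133 without each). Its share of HNRNPLL counts was 14.5%, 19.8% and 26.4% in WT and 17.3%, 17.9% and 28.5% in CD47- cells at 1, 3 and 6 h, and every library at 6 h (25.0% to 31.0%) was above every other library of its line.

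HNRNPLL-201 (ENST00000272249.7), annotated as subject to nonsense-mediated decay, took 16.7% of HNRNPLL counts in WT and 17.8% in CD47- cells. In CD47- cells it fell from 7.81, 11.9, 14.3 and 13.8 CPM at 1 h to 3.00, 1.81 and 3.82 CPM at 6 h, a log2 fold change of -2.21 (edgeR adjusted p = 0.00793). In WT cells its libraries at 1 h ranged from 1.76 to 8.86 CPM, and the 6 h change was -0.44 (edgeR adjusted p = 0.597). HNRNPLL-209 (ENST00000449105.8, 542 codons) took 9.56% and 10.6% of the counts, from 0.044% to 23.1% of them in single WT libraries, and passed no test.

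**Figure D4:**
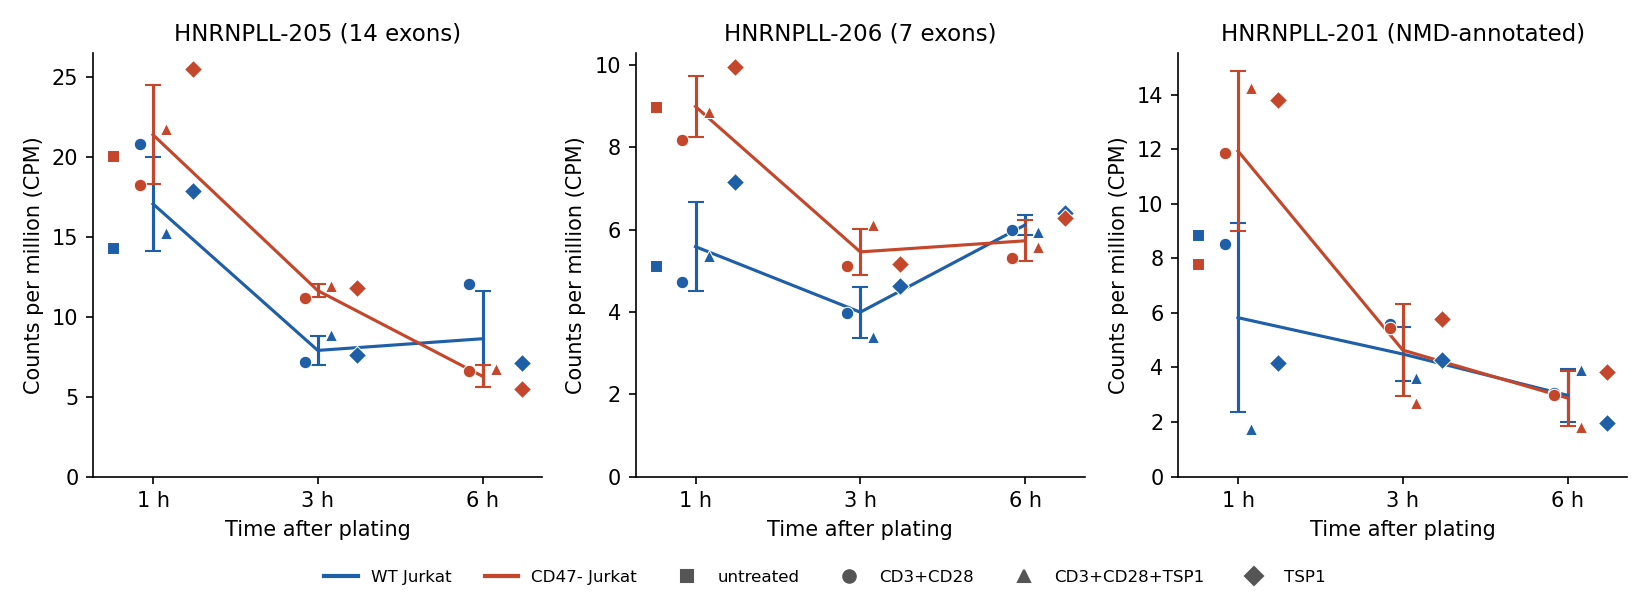
Levels of HNRNPLL-205, HNRNPLL-206 and HNRNPLL-201 in CPM (vertical axes from 0, each with its own scale) at 1, 3 and 6 h in WT (blue) and CD47- (red) libraries; symbols are single libraries by treatment, lines and bars the mean and SD of a time point. HNRNPLL-205 falls in both lines, HNRNPLL-206 ends at 5.31 to 6.41 CPM in both, and HNRNPLL-201 varies among the WT libraries at 1 h from 1.76 to 8.86 CPM.

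The relation of exon A inclusion to HNRNPLL mRNA was examined across the libraries of each line. In WT cells Pearson's r between log2 CPM of HNRNPLL and exon A inclusion was 0.17 (n = 10, permutation p = 0.633) and Spearman's rho -0.079 (permutation p = 0.837), and r was 0.33 without the 2 libraries farthest from the median of HNRNPLL. In CD47- cells r was 0.71 (n = 10, permutation p = 0.0201, adjusted p = 0.0804 over 4 relations) and rho 0.61 (permutation p = 0.0670, adjusted p = 0.268), and r was 0.90 without the 2 farthest. Both measures changed with time, and with time-point means removed r was -0.64 in WT and -0.13 in CD47- cells. In the 3 or 4 libraries of a single time point the sign was mixed, with r of -0.90, 0.22 and 0.42 in WT and -0.65, 0.99 and -0.98 in CD47- cells at 1, 3 and 6 h, and none of these values within time points was tested. For CD45RO r was -0.19 in WT (n = 10, permutation p = 0.581) and -0.63 in CD47- cells (permutation p = 0.0550). With counts divided by transcript length it was -0.29 in CD47- cells (permutation p = 0.407). With time-point means removed, r for CD45RO was 0.55 in WT and -0.13 in CD47- cells, which was not tested. Between the lines, CD47- cells had less HNRNPLL and less exon A than WT cells at 6 h, and more HNRNPLL and less exon A at 1 h and 3 h. The part of HNRNPLL in exon A inclusion was not tested.

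Of 15 listed regulators of CD45 splicing, all tested, 4 were lower in CD47- cells and none was higher, with a median log2 fold change of -0.19 against -0.01 over all genes, of which 20.6% were lower and 19.8% higher. The splicing factors SRSF2 (-0.43, edgeR adjusted p = 0.000165) and SRSF3 (-0.41, 0.000727), which bind exonic enhancers, were at 502 ± 42.0 and 676 ± 94.9 CPM in WT and at 372 ± 53.8 and 508 ± 64.4 CPM in CD47- cells (SD, n = 10 each). HNRNPA1 (-0.37, edgeR adjusted p = 0.0219), a splicing repressor, and SFPQ (-0.25, 0.0486), which is known to act on CD45 exons in stimulated T cells, were also lower. The SFPQ call was lost with upper-quartile factors (-0.22, edgeR adjusted p = 0.0926) and under most other settings. That of HNRNPA1 was lost in the 4 pairs without activation (-0.21, edgeR adjusted p = 0.440) and in the 6 activated pairs (-0.45, 0.0809).

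Over time, 5 of the 15 rose and 5 fell at 6 h in each line, where 25.7% of all genes rose and 24.8% fell in WT and 26% and 27% in CD47- cells. HNRNPLL had the lowest value of the list at 3 h and 6 h in both lines. SRSF1 rose at 6 h by log2 fold changes of 0.78 in WT (edgeR adjusted p = 8.97e-07) and 0.76 in CD47- cells (9.13e-07), and SFPQ by 0.43 and 0.45 (0.000211 and 0.000151). PTBP1, a repressor of exons with pyrimidine-rich tracts, rose by 0.42 and 0.32 (edgeR adjusted p = 0.00488 and 0.0199). SRSF4 fell, with -0.35 in WT (edgeR adjusted p = 0.000331) and -0.59 in CD47- cells (3.13e-06). The interaction of line and 6 h was called for 2 of the 15, HNRNPLL and THRAP3 (-0.38, edgeR adjusted p = 0.00838), against 16.6% of all genes.

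Among 28 genes of the hnRNP family, all tested, 2 were higher and 10 lower in CD47- cells, against 19.8% and 20.6% of all genes. HNRNPF (0.20, edgeR adjusted p = 0.00631) and HNRNPUL2 (0.29, 0.0375) were higher. The HNRNPF call was lost in the 4 pairs without activation (0.27, edgeR adjusted p = 0.0858) and in the 6 activated pairs (0.19, 0.164). HNRNPA2B1 was at 825 ± 49.6 CPM in WT, against 631 ± 52.5 CPM in CD47- cells (-0.39, edgeR adjusted p = 1.43e-05), HNRNPU at 1051 ± 45.0 and 859 ± 35.8 CPM (-0.29, 4.68e-05), HNRNPH1 at 1531 ± 151 and 1097 ± 157 CPM (-0.48, 9.42e-05) and RBMX at 810 ± 88.9 and 607 ± 83.9 CPM (-0.42, 0.000461). HNRNPU was at -0.08 in limma voom with quantile normalization (adjusted p = 0.358). The HNRNPUL2 call was lost in 12 of the alternatives tried, 9 of them with a single library left out.

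At 6 h against 1 h, 8 hnRNP genes rose and 9 fell in WT cells, and 6 rose and 12 fell in CD47- cells, against 25.7% and 24.8% of all genes in WT and 26% and 27% in CD47- cells. HNRNPLL was the lowest of the 28 at 3 h and at 6 h in each line. PTBP3 was the next at 6 h, at -0.68 in WT (edgeR adjusted p = 1.37e-06) and -0.98 in CD47- cells (3.64e-08). HNRNPM, a splicing regulator, was the highest, at 1.02 in WT (edgeR adjusted p = 1.22e-07) and 0.69 in CD47- cells (3.86e-06). Against 16.6% of all genes, the 6 h interaction was called for 4 of the 28. These were HNRNPLL, HNRNPA2B1 (-0.34), HNRNPM (-0.34) and PTBP3 (-0.31) (edgeR adjusted p = 0.00137, 0.0371, 0.0448 and 0.0354). All 4 interactions were negative, which is a lower 6 h change, not a lower level, in CD47- than in WT cells.

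**Figure D5:**
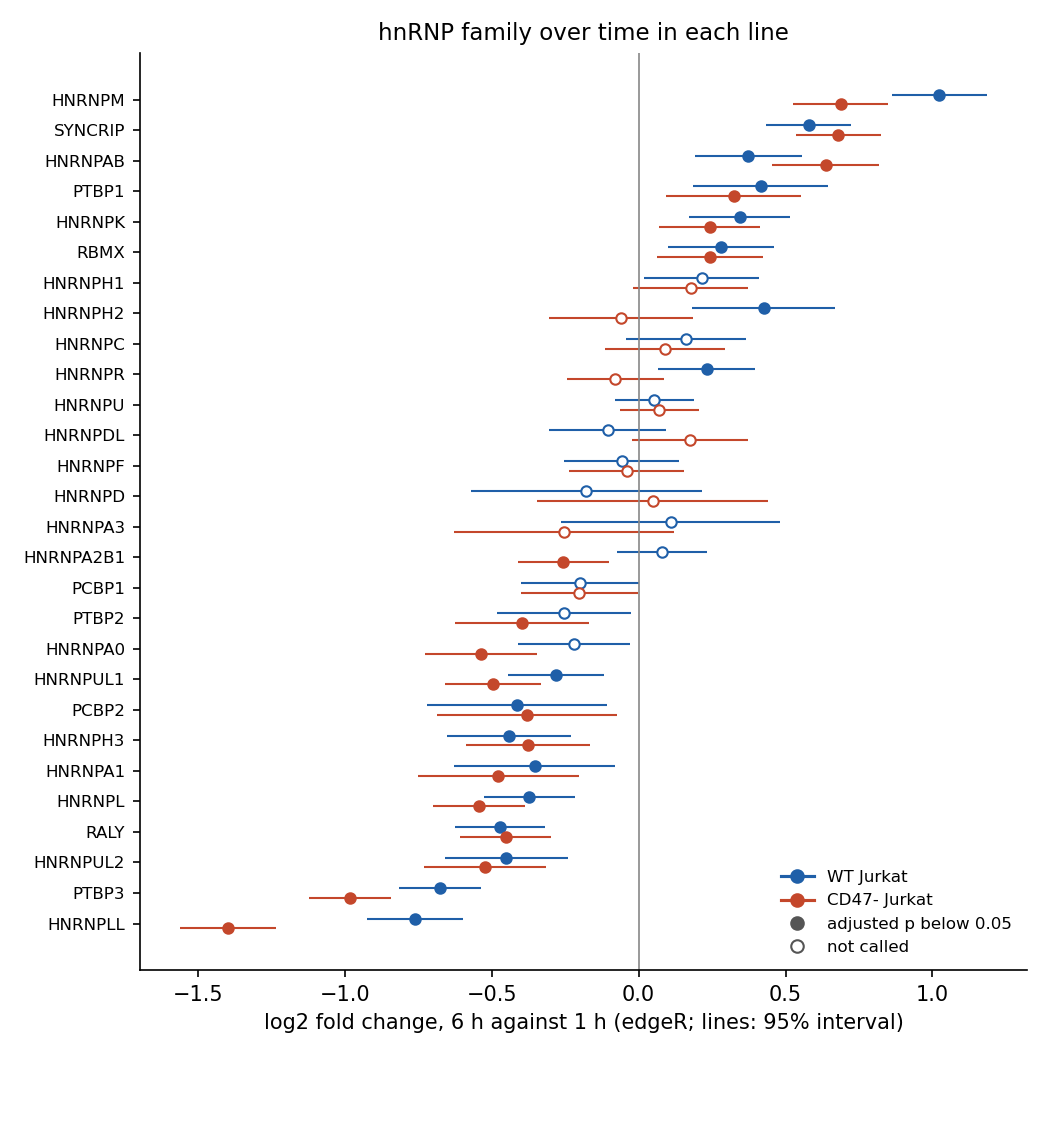
Log2 fold change of 28 hnRNP genes at 6 h against 1 h (horizontal axis) in WT (blue) and CD47- (red) cells from the edgeR model, with 95% intervals as lines; filled points have an adjusted p below 0.05 and open points do not, and genes are ordered along the vertical axis by the mean of both values. HNRNPLL is at the low end in both lines, at -0.76 in WT and -1.40 in CD47- cells, and HNRNPM at the high end.

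Of 20 listed partners and substrates of CD45, 17 were tested, and 5 were higher and 4 lower in CD47- cells, against 19.8% and 20.6% of all genes, with a median log2 fold change of 0.01 against -0.01 over all genes. The main substrate LCK was at 0.13 (edgeR adjusted p = 0.185) and FYN at 0.01 (0.902), and neither passed. CD2, an adhesion receptor that associates with CD45, was at 43.4 ± 6.35 CPM in WT, against 117 ± 18.9 CPM in CD47- cells (1.43, edgeR adjusted p = 1.20e-10). ZAP70, the kinase recruited after LCK acts on the receptor, was at 220 ± 53.7 and 116 ± 36.7 CPM (-0.92, 0.000128). Galectin-1 (LGALS1, 1.10), a lectin that binds CD45 glycans, the phosphatase PTPN6 (0.69) and the CSK-binding adaptor PAG1 (0.32) were higher, and the phosphatases PTPN22 (-0.49) and PTPN2 (-0.35) and the adaptor SKAP1 (-0.66) were lower in CD47- cells.

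The CD45-associated protein PTPRCAP did not differ between the lines past the threshold (0.15, edgeR adjusted p = 0.679), and rose at 6 h in WT (0.74, 0.0290) and CD47- cells (1.58, 0.000181). CSK, which adds the inhibitory phosphate that CD45 removes, rose at 6 h by 0.73 in WT (edgeR adjusted p = 5.88e-05) and 0.92 in CD47- cells (6.12e-06). CD4 had the lowest value of the list at 6 h, at -1.87 in WT (edgeR adjusted p = 1.75e-08) and -1.61 in CD47- cells (3.27e-08). In all, 6 rose and 6 fell in WT, and 7 rose and 5 fell in CD47- cells at 6 h, where 50.5% and 53% of all genes were called.

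PTPRC was 1 of 12 receptor-type tyrosine phosphatases tested of 20 listed, and of these 5 were higher and 2 lower in CD47- cells, against 19.8% and 20.6% of all genes. PTPRS (16.2 ± 2.35 and 47.5 ± 10.8 CPM, 1.55, edgeR adjusted p = 4.96e-10), PTPRF (14.9 ± 4.55 and 40.3 ± 9.56 CPM, 1.44, 4.62e-07) and PTPRJ (5.75 ± 1.298 and 10.9 ± 1.27 CPM, 0.93, 1.22e-06) were higher. PTPRG, also counted among the 5, was at 0.21 ± 0.11 and 4.34 ± 1.79 CPM. It passed the low-count filter only through its CD47- libraries, so nothing is drawn from its place in that count. PTPRK was lower, at 18.2 ± 2.64 and 3.48 ± 0.66 CPM (-2.39, edgeR adjusted p = 1.46e-13). The 6 h interaction of PTPRC, -0.97, was the lowest of the 12.

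Plating on anti-CD3 and anti-CD28 changed neither PTPRC nor HNRNPLL past the threshold. CD3_CD28_TSP1 was compared with TSP1, the only comparison with and without the antibodies that is matched at 3 time points. For PTPRC the edgeR difference was 0.06 in WT (adjusted p = 1.00, 0.0919% of genes called) and -0.19 in CD47- cells (95% interval -0.35 to -0.03, adjusted p = 0.286, 0% of genes called, 2636 genes with an unadjusted p below 0.05). The difference between the lines in this effect on PTPRC was -0.25 (edgeR adjusted p = 0.705, 0% of genes called and 1048 with an unadjusted p below 0.05). For HNRNPLL the values were -0.09 in WT (95% interval -0.25 to 0.08) and -0.13 in CD47- cells (-0.29 to 0.03), with edgeR adjusted p of 1.00 and 0.378.

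Over both activated treatments against TSP1 and UT of the same line and time, exon A inclusion differed by 1.61 points in WT (exact permutation p = 0.370) and 0.13 points in CD47- cells (0.944). At 1 h, the difference of CD3_CD28 from UT was -5.61 points in WT and -3.48 points in CD47- cells, values of single libraries with no replicate check. CD3_CD28_TSP1 minus TSP1 alone was 3.87, 4.01 and 1.14 points at 1, 3 and 6 h in WT, of 1 sign, and 4.81, -2.30 and 3.31 points in CD47- cells, of mixed sign. That contrast of exon A was not tested by itself. In the edgeR comparison of CD3_CD28_TSP1 with TSP1, 5 of 7 early activation genes tested rose in WT, where 0.0919% of all genes were called. They were CD69 (2.04, edgeR adjusted p = 0.0184), EGR1 (2.03, 0.0184), EGR2 (2.00, 0.0417), DUSP2 (1.91, 0.0184) and FOS (1.39, 0.0143). The list median was 1.91, against 0.0026 over all genes. In CD47- cells, where 0% of all genes were called, none of the 7 passed (median 0.23, against 0.00028 over all genes). None passed for a difference between the lines, where 0% of genes were called.

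CD3_CD28_TSP1 against CD3_CD28 gave no call for either gene. CD3_CD28 against UT rests on 1 UT library per line, at 1 h, so no conclusion is drawn from it. For PTPRC the effect of TSP1 on activated cells was -0.04 in WT (edgeR adjusted p = 1.00, 95% interval -0.21 to 0.12) and -0.16 in CD47- cells (0.459, -0.32 to 0.0029). For HNRNPLL it was -0.06 and -0.11 (edgeR adjusted p = 1.00 and 0.551). These comparisons called 0% of genes, with 366 (WT) and 1771 (CD47-) genes at an unadjusted edgeR p below 0.05.

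The genes whose course was most like that of each member were listed by Pearson's r of log2 CPM centred within each line over 20 libraries, out of 12519 genes whose mean log2 CPM reached 1. For PTPRC they were COPB2 (0.95), TRIM5 (0.94), CPSF2 (0.93), AP3M1 (0.91) and SOAT1 (0.90). For HNRNPLL they were YPEL1 (0.99), SENP7 (0.98), FYB1 (0.98), UBALD2 (0.98) and TTK (0.98). These libraries share 3 time points, which move many genes, and the values are a description.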

How the data were processed

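RNA was sequenced in 20 libraries, 10 per line. After trimming (Cutadapt 1.18) and alignment to GRCh38 (STAR 2.4.2a), the authors deposited RSEM 1.3.3 expected counts per gene and per isoform on GENCODE 36, without normalization; 2 columns in each table that match no sample here were not used. The batch removed with ComBat and the strand setting are not given in the sources used here, so neither step was repeated, and reads from an antisense gene cannot be told apart. Expected counts were rounded and tested with edgeR 4.0.16 in R 4.3.3 (filterByExpr by line with minimum count 10 and minimum total count 15, TMM factors, quasi-likelihood test, Benjamini-Hochberg adjustment, threshold 0.05), with line alone or with every combination of line and treatment plus a 3 h and a 6 h term per line. DESeq2 1.42.0 and limma 3.58.1 were alternatives, as were other factors, filters, denominators and left-out libraries. Isoform structures and sequences came from GENCODE 44 and the GRCh38 reference; the sequence of exon B is not reported here. Named genes are both members, their isoforms with at least 5% of counts in either line, up to 4 higher and 4 lower genes of each list by p between the lines, list members used as background, and the 5 genes most like each member. The members, the lists and the tests were chosen with earlier results of these data known. Libraries of both lines matched for treatment and time deviated together from their line's mean over 16327 genes (r of 0.120 to 0.601, 10 of 10 pairs above 0.1), which includes time; within a line and time point r was -0.335 to 0.187. The scripts were tested on simulated data.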

Additional observations from a re-analysis of the deposited data

Results flagged for a closer look

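The time course of PTPRC differed between the lines, with an interaction of -0.79 at 3 h and -0.97 at 6 h on the log2 scale (edgeR, Benjamini-Hochberg adjusted p = 0.00158 and 6.67e-05): PTPRC rose in WT and fell in CD47- cells. That of HNRNPLL differed at 6 h, by -0.64 (edgeR adjusted p = 0.00137), with a fall in both lines that was larger in CD47- cells. Among 28 groups of 4 libraries or more examined for PTPRC, HNRNPLL and their shares, no library stood far enough from the others to pass Dixon's 95% value. The groups were all 10 libraries of a line or its 1 h libraries, so no 3 h or 6 h library was compared within its time point. Other genes were not examined in this way.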

How the results depend on the processing

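Of 296 values for the time effects of PTPRC and HNRNPLL and their differences between the lines, 294 kept direction and call; PTPRC at 6 h in CD47- cells ranged from -0.29 to -0.22 with a library left out and lost its call in 2. PTPRC between the lines was -0.34 (edgeR adjusted p = 0.209) in the 4 pairs without activation and 0.0021 at 1 h. HNRNPLL between the lines was 0.30 with the replicate block of 10 matched pairs, 0.30 with a time term, 0.44 at 1 h, 0.62 at 3 h and -0.20 at 6 h; the block also brought PTPRC-209 use past the threshold (-0.40) and raised the genes called between the lines from 6596 to 8957, and changed no other call of either gene. PTPRC-209 use was -0.37 with the 1 CPM filter and -0.51 with limma voom and diffSplice. The 6 h change of CD45RO was 2.39 points with counts divided by length (exact p = 0.0824), where HNRNPLL and CD45RO in WT had r = 0.088. With a library left out, PTPRC with activation in WT was -0.022 to 0.11. HNRNPLL with activation was then -0.13 to -0.022 in WT and -0.16 to -0.072 in CD47- cells. In WT at 6 h, HNRNPLL-201, HNRNPLL-206 and HNRNPLL-209 were -1.03 to 0.0081, 0.026 to 0.27 and -0.88 to 0.77. Genes called between the lines numbered 4067 in the 6 activated pairs and 2706 in the other 4; genes called for the 3 h interaction numbered 698, with 1397 unfiltered, 1060 in DESeq2 and 169 to 1066 with a library left out, and for the 6 h interaction 2714, with 1459 to 4273. With a library left out, isoforms called at 6 h numbered 4922 (without WT CD3_CD28 at 6 h) to 9774 in WT and 5878 (without CD47- TSP1 at 6 h) to 11043 in CD47- cells by level, against 8237 and 9606 (also 5253 and 5034 without WT CD3_CD28 and TSP1 at 1 h, 5104 and 5286 without WT CD3_CD28_TSP1 and TSP1 at 6 h, and 5921 and 6085 without CD47- CD3_CD28 and TSP1 at 1 h), and 381 to 648 and 528 to 980 by use, against 564 and 853, the lowest CD47- values without its CD3_CD28 (547) or TSP1 library at 1 h (530) or its TSP1 library at 6 h (528). Of 781 values for 27 named list genes between the lines, 720 kept direction and call, 60 lost the call and DUSP2 turned to 0.23 in the 4 pairs without activation. The causes were not tested. One library per condition and HNRNPLL counts of 456 to 1463, spread over 12 isoforms, limit the isoform values.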
